A study of Mus musculus with 6 samples.

Results

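The genes described here are the homeobox genes outside the HOX clusters, taken by family (PAX, sine oculis, LHX, IRX, OTX, DLX, MSX, MEIS, PBX, POU, NKX, TLX, GSX, EN, EMX, VSX, BARX, CUX, ONECUT, PITX, ALX and PHOX2), together with the ZIC genes. They were chosen by symbol: 99 genes, measured by 131 of the 41174 probes on the array, matched the family names and encode a homeodomain or ZIC protein. The other 49 symbols with the same beginnings were not members, and included Pax1 and Pax9, which have a paired box and no homeobox, antisense transcripts, and unrelated genes whose symbols start with En. The test took 51 of the 99, those with signal well above background in all 3 lines of a group, among 19847 features in all.

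The samples were 6 primary cell lines from lung tumours of C57BL/6J mice with conditional Rb1 and Trp53 alleles (Rb1L/L, Trp53L/L), a model of small cell lung carcinoma. Of these lines, 3 are labelled SMC and 3 non-SMC, and the labels, which do not spell the abbreviation out, join each SMC line to 1 non-SMC line as a pair. By the labels, pair 2 is male and the other pairs are female. All lines share the mouse genotype, strain and serum-containing medium, and there is 1 array with 1 dye (Cy3) per line; the labels name neither the agent that recombined the alleles nor the age of the mice.

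Homeodomain proteins bind DNA through a helix-turn-helix fold, most often at sites with a TAAT core, and they fix the regional and cell-type identity of embryonic tissues. The families differ in what accompanies the homeodomain: sine oculis (so) class proteins recruit EYA coactivators, LIM homeodomain (LHX) proteins bind LDB1, POU and CUT proteins carry a further DNA-binding domain, and PBX and MEIS of the TALE class act as partners of other homeodomain proteins. ZIC proteins are zinc finger factors of the neural plate and cerebellum, related to the GLI proteins. In neuroendocrine and neuronal cells, members of the POU, sine oculis, LHX, CUX and ONECUT families are part of the differentiation programme, whereas MSX, DLX, ALX and PRRX genes are known from craniofacial and limb mesenchyme.

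Values are given as log2 signal after subtraction of the 75th percentile of the array, and each difference is the SMC value minus the non-SMC value. Each array had 64.1% to 68.5% of its probes well above background and none saturated. A single slide held 4 of the arrays, the SMC lines of pairs 1 and 2 with the non-SMC lines of pairs 2 and 3, and SMC replicate 3 and non-SMC replicate 1 had slides of their own. Beside the results stand the marker lists, each given as log2 of the summed signals: the 9 neuroendocrine markers lay between 7.84 and 8.45 in SMC lines and between 4.36 and 7.11 in non-SMC lines, with non-SMC replicate 2 the highest of its group. The 9 mesenchymal and fibroblast markers lay between -0.96 and 1.34 in SMC lines and between 7.53 and 9.18 in non-SMC lines. No SMC array had Col1a1, Col3a1 or Lum well above background, and Lum was so in non-SMC replicate 3 alone. Of the 8 tested, 5 passed as lower in SMC (Vim, Col1a1, Col1a2, Col3a1 and Pdgfrb). The others did not pass: Pdgfra (-2.87) and Dcn (-4.51) had negative differences and Thy1 a positive one (0.91). In pair 1 Dcn was higher in the SMC line, at 0.66 against -4.58. The 7 epithelial markers were at 7.51, 8.40 and 1.92 in the SMC lines of pairs 1 to 3, against 0.40, 8.48 and 8.38 in their non-SMC partners. The 6 leukocyte markers on the array reached 0.33 in SMC replicate 3 and 0.57 in non-SMC replicate 3, against -3.64 to -3.05 in the other 4 lines. In SMC replicate 3 the sum came mostly from Lyz2 (0.12), with Tyrobp at -5.10 and Ptprc not well above background. In non-SMC replicate 3 it came mostly from Tyrobp (-0.26) and Lyz2 (-1.05), with Ptprc at -3.54. The 4 endothelial markers summed to between -4.60 and -4.04 in SMC lines and between -4.57 and -3.96 in non-SMC lines; Pecam1 and Cdh5 were well above background on no array, Kdr on 1 SMC and 3 non-SMC arrays, and Tek on 2 SMC arrays. The 5 smooth muscle markers lay between 3.01 and 3.64 in SMC lines and between 4.85 and 6.46 in non-SMC lines. Acta2, Cnn1 and Tagln were tested, with negative differences that did not pass (-1.29, -9.06 and -4.10). Other probes that passed the filter gave -10.70 and -8.48 for Acta2 and -7.03 for Tagln. These RNA samples are bulk, so fewer cells of a type and less RNA per cell cannot be told apart, and the part of these markers in the results was not tested.

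Setting each SMC line beside its non-SMC partner asks which of these factors distinguish the lines of a pair. All SMC lines lay above all non-SMC lines for 9 genes, among them Pitx3, Six4, Lhx2, Pou2f2, Pbx4, Cux2, Irx5 and Irx6. All SMC lines lay below all non-SMC lines for 5 genes, among them Msx2, Dlx2, Lhx9 and Irx1. Of these, Pou2f2, Cux2 and Irx6 entered the test through the SMC lines alone, and Msx2, Dlx2 and Lhx9 through the non-SMC lines alone. Each therefore had to differ in detection, and its separation is not independent of the filter. None of the 51 tested genes passed in either direction at an adjusted p under 0.05 (limma, pair and group in the model, adjusted over all features), where the background over all features was 0.156% on the higher and 3.03% on the lower side. At an unadjusted p under 0.05, 10 of the 51 were on the higher side (19.6%, against 14.9% of all features) and 7 on the lower side (13.7%, against 11.8%). The smallest adjusted p was that of Pitx3, 0.0765, followed by Msx2, with 0.0917. The median difference of the 51 genes was 0.50, against 0.18 over all features; it was 0.11 without the filter on dim probes (all features 0.11), 0.16 with normexp (all features 0.08) and 0.26 without pair 3 (all features 0.13). With normexp, the differences of the 25 genes with the smallest p kept their sign, all 25 lay nearer 0 and 15 were smaller by over 1.5 times; none passed. On the higher side these were, among others, Pitx3 (0.96), Pou4f3 (0.38), Pou2f2 (1.83), Cux2 (2.75), Irx6 (0.46), Six2 (0.50), Gsx1 (0.27) and Pou4f1 (0.62), and on the lower side Msx2 (-2.31), Dlx2 (-1.71), Nkx2-3 (-0.78), Lhx9 (-0.83) and Meis1 (-0.46). Of the 51 differences, 34 were positive (66.7%, against 58.3% of all features). The count of genes without overlap was 17.6% with SMC above, where the background was 22.8%, and 9.8% with SMC below, where it was 15.4%. The sign was the same in all 3 pairs for 26 of the 51 (51%, against 55.5%). These shares lay near those of all features, so the genes are described below by their own values, with the main ones given in every line.

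**Figure D1:**
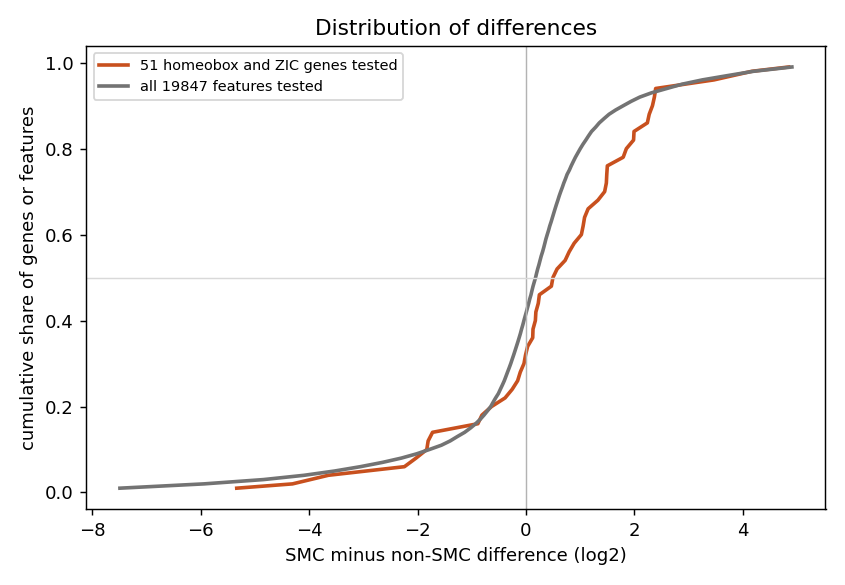
Cumulative share (y axis, drawn from the 1st to the 99th percentile) of the SMC minus non-SMC difference in log2 units (x axis) for the 51 homeobox and ZIC genes tested and for all 19847 features tested. The medians are 0.50 for the homeobox and ZIC genes and 0.18 for all features.

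Within pairs, the genes did not shift equally. Differences above 2 were found for 9 of the 51 genes in pair 1, 3 in pair 2 and 17 in pair 3 (17.6%, 5.88% and 33.3%, against 13.5%, 1.57% and 11.9% of all features). Differences below -2 were found for 7, 5 and 6 genes in pairs 1 to 3 (13.7%, 9.80% and 11.8%, against 9.98%, 8.85% and 10.8% of all features). Pair 2 gave the difference nearest 0 for 31 of the 51 genes (60.8%, against 50.8% of all features), and it was also the pair whose non-SMC line had the highest neuroendocrine markers of its group and the 1 pair whose lines shared a slide. Without non-SMC replicate 2 and without the pair in the fit, 5 members passed as higher in SMC (among them Cux2, Six2, Pbx4 and Lhx2) and none as lower, where 7.86% and 5.78% of all features were called.

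**Figure D2:**
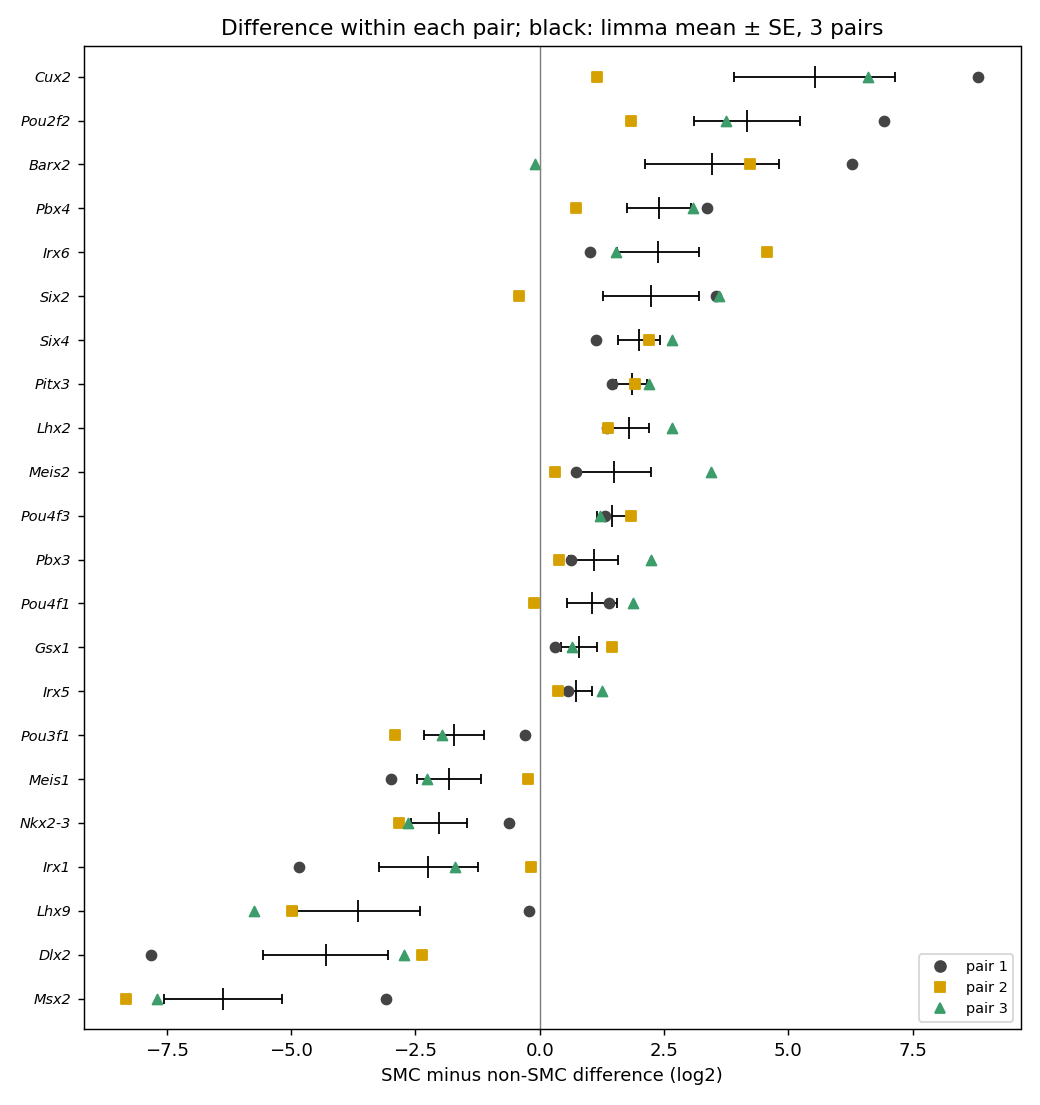
SMC minus non-SMC difference (x axis, log2) within each of the 3 pairs for 22 of the 25 tested homeobox genes with the smallest unadjusted p (y axis), with the limma mean ± SE in black. Cux2 and Pou2f2 have the largest positive means, 5.53 and 4.17, and Msx2 the lowest, -6.36.

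Promoter sequences are shown for the 4 genes with the smallest p that have an entry in the RefSeq table (Pitx3, Msx2, Six4 and Lhx2) and for Cux2, which had the largest positive difference. Each runs from 250 bases before to 50 after the annotated start in build GRCm38.p6, 5′ to 3′ on the gene's strand, and the first listed start is used for Six4, Lhx2 and Cux2, which have 2. Capitals mark TAAT on either strand (TAAT or ATTA), its palindrome TAATTA, which contains both, and the palindromic E-box CAGCTG, a site of basic helix-loop-helix factors. The positions are chr19:46148276-46148575, minus strand for Pitx3, chr13:53472731-53473030, minus strand for Msx2, chr12:73113196-73113495, minus strand for Six4, chr2:38339031-38339330, plus strand for Lhx2 and chr5:122049802-122050101, minus strand for Cux2.
Pitx3: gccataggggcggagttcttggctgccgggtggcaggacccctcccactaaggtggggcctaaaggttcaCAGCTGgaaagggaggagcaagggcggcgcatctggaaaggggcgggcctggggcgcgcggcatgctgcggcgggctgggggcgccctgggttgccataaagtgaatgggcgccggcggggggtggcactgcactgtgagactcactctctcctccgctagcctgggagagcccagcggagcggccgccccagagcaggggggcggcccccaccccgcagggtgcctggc
Msx2: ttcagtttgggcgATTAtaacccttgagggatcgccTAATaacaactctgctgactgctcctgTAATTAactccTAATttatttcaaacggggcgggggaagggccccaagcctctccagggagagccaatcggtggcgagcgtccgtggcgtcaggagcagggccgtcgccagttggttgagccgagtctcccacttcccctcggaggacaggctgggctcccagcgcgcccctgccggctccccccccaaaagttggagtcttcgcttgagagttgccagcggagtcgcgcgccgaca
Six4: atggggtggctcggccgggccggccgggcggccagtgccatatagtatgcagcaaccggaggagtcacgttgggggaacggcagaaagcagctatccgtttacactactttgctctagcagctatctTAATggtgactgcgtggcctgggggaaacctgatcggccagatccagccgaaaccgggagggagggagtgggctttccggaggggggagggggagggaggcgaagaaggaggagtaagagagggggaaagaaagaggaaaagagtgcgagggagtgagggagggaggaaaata
Lhx2: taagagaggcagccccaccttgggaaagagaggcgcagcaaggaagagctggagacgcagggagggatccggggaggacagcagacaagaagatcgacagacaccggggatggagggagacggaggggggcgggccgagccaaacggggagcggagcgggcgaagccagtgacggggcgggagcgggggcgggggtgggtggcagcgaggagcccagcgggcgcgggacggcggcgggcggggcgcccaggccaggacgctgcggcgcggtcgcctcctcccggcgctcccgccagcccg
Cux2: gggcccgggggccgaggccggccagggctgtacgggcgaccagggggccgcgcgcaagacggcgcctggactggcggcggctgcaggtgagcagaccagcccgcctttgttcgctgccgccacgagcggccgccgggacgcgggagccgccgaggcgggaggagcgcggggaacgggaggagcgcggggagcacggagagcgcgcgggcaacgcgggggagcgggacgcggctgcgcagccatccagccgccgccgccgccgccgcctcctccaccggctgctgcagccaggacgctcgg
The Msx2 window held 5 matches to TAAT or ATTA, among them the pair inside 1 TAATTA, which 5.29% of the 32851 promoters in the table hold. Six4 held 1 TAAT, and Pitx3, Lhx2 and Cux2 held none, where 58% of all promoters hold at least 1. CAGCTG was found in the Pitx3 window, as in 16.3% of all promoters, and in none of the other 4. The windows held 20 CpG dinucleotides in Pitx3, 22 in Msx2, 16 in Six4, 34 in Lhx2 and 48 in Cux2, against a median of 7 over all promoters. These matches describe letters and are not evidence of binding.

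Pitx3, a paired-like factor of lens and midbrain dopaminergic neurons, had log2 signals of -2.87, -1.39 and -2.61 in the SMC lines of pairs 1 to 3, against -4.33, -3.31 and -4.80 in their non-SMC partners. All SMC lines lay above all non-SMC lines, and its probe was well above background on all 6 arrays. The difference was 1.85 ± 0.31 (SE, 3 pairs), with a 95% interval of 0.99 to 2.72 and an adjusted p of 0.0765 (limma). Its relative Pitx1, a factor of hindlimb identity, was not tested. It was well above background in SMC replicate 3 (-4.94) and non-SMC replicate 2 (-0.60) alone.

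Of the sine oculis family, 4 of 6 genes were tested and 3 had positive differences, as did 58.3% of all features. Six4, a factor of muscle and sensory placodes that acts with EYA proteins, was at 0.47, 0.35 and -0.33 in SMC lines and -0.67, -1.84 and -2.99 in non-SMC lines. Every SMC line lay above every non-SMC line, with a mean difference of 1.99 ± 0.42 (adjusted p = 0.107). Six6, an eye and pituitary factor, was well above background on no array.

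Six2, which maintains kidney progenitors, gave -3.71, -4.29 and -3.29 in SMC lines. In non-SMC lines it gave -7.25, -3.87 and -6.90, and only replicate 2 was well above background there. That line lay within the SMC range, so the groups overlapped (difference 2.24 ± 0.97, adjusted p = 0.235). With non-SMC replicate 2 left out and no pair in the fit, the Six2 difference was 3.31 (limma adjusted p = 0.0109), and without pair 2 it was 3.57 (0.0476). Six5 was the family's negative gene, at -0.63, and Six3, a forebrain and eye factor, was detected in SMC replicate 3 alone.

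EYA, DACH, LIM cofactor and Groucho genes act with the sine oculis and LHX proteins. Of 17 such genes on the array 13 were tested, none passed in either direction, and their median difference was 0.31, against 0.18 over all features. The lowest p was that of Eya4, at -3.74, -8.04 and -5.92 in SMC lines and -0.72, -0.67 and -0.82 in non-SMC lines, with SMC replicate 2 not well above background. Here every SMC line lay below every non-SMC line (difference -5.16 ± 0.92, limma adjusted p = 0.0851); it passed without the pair in the fit (adjusted p = 0.0448) and with normexp, at -2.40 (0.0231). Eya3, by contrast, gave 1.37, 1.55 and 2.34 in SMC lines and 0.24, 0.71 and 0.68 in non-SMC lines, with no overlap (difference 1.21 ± 0.32, adjusted p = 0.132).

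Among the LIM homeodomain genes, 4 of 8 were tested. Lhx2, a regulator of forebrain, eye and hair follicle progenitors, was at 2.68, 3.73 and 2.91 in SMC lines and 1.32, 2.36 and 0.26 in non-SMC lines. The lowest SMC line lay 0.32 above the highest non-SMC line, replicate 2. Its difference was 1.79 ± 0.41 (SE, adjusted p = 0.114 by limma), and 2.32 with an adjusted p of 0.0468 when non-SMC replicate 2 and the pairing were left out. Lhx9, a gonad and limb factor, pointed the other way: it was at -4.42, -8.32 and -8.20 in SMC lines, only the first well above background, and at -4.20, -3.34 and -2.45 in non-SMC lines. The groups did not overlap, although the lines of pair 1 differed by only -0.22 (mean difference -3.65 ± 1.24, adjusted p = 0.174). Setting signals that were not well above background to the floor gave -2.31 for Lhx9. Leaving out SMC replicate 1 and the pairing gave -4.92 (limma adjusted p = 0.0211), where 2.66% of all features were called lower. That line was the highest SMC line, so leaving it out widens the gap. Over the other settings the Lhx9 difference ran from -5.36 to -0.83, with limma adjusted p up to 0.47.

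Lhx1, a factor of kidney and cerebellar Purkinje cells chosen here after its values were seen, was at 0.99, -5.04 and 0.19 in SMC lines and -2.09, -3.34 and -2.93 in non-SMC lines. SMC replicate 2 was the lowest of all 6 lines and the other SMC lines the highest (difference 1.5 ± 1.16, adjusted p = 0.45). Without SMC replicate 2 and the pairing, Lhx1 passed at 3.38 (limma adjusted p = 0.0456), where 0.403% of all features were called higher. That setting leaves out the SMC line that ran against the Lhx1 difference, so the pass is not independent support. Lhx6, which specifies cortical interneurons and is also expressed in jaw mesenchyme, was well above background only in non-SMC replicates 1 and 3, at -0.79 and -3.68, and was not tested for that reason. Lhx3, Lhx5 and Lhx8 were well above background on no array.

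**Figure D3:**
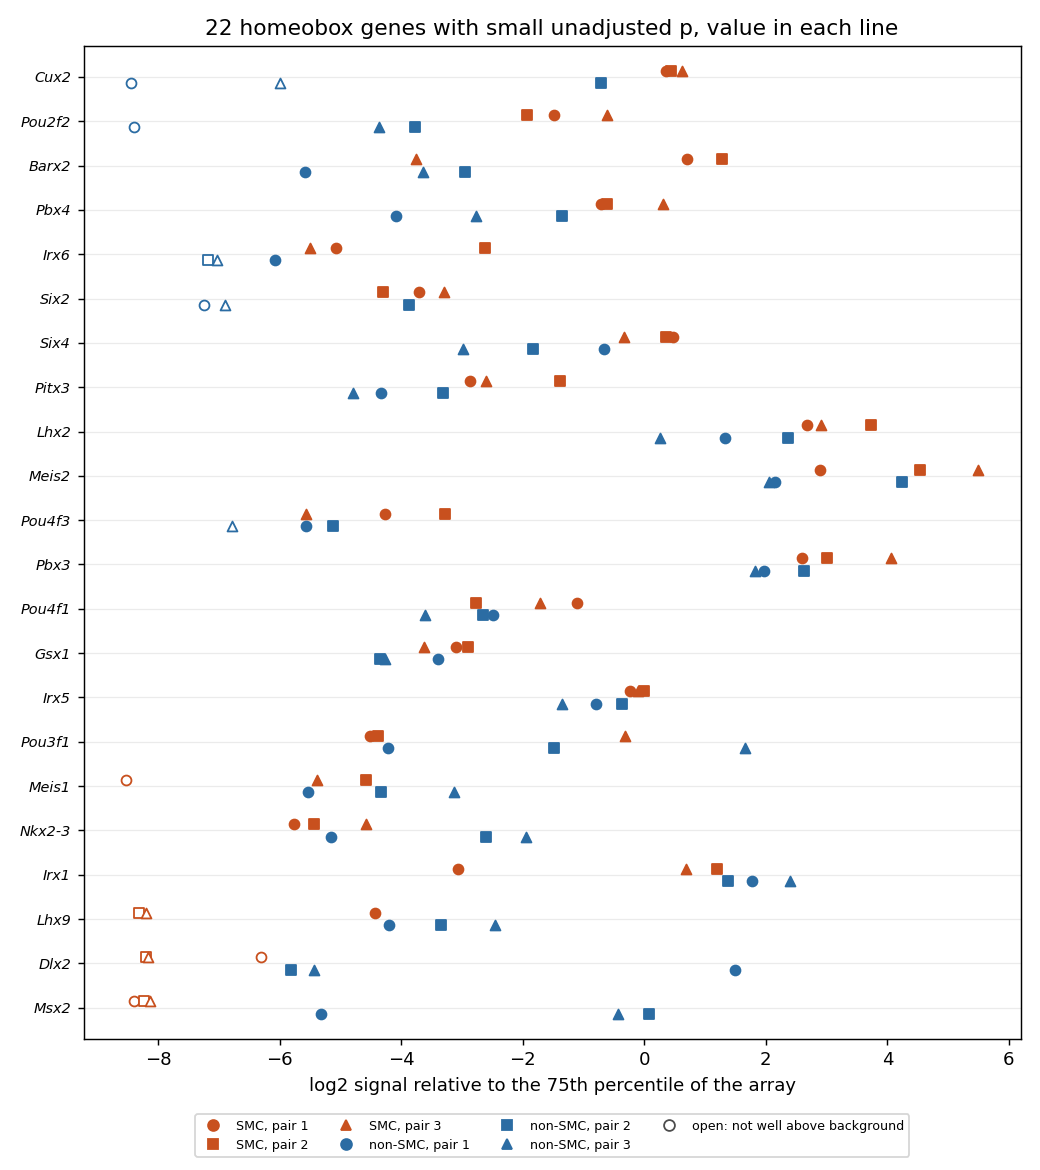
Log2 signal relative to the 75th percentile of the array (x axis) in each of the 6 lines for 22 of the 25 tested homeobox genes with the smallest unadjusted p (y axis, ordered by difference). SMC lines are orange, non-SMC lines blue, shapes mark the pairs, and open symbols were not well above background. For Cux2 the SMC lines sit between 0.36 and 0.61, and non-SMC replicate 2 lies at -0.72, far above the other non-SMC lines.

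The CUT class held the gene with the largest positive difference. Cux2, a marker of upper-layer cortical neurons and of dividing neural progenitors, was at 0.36, 0.45 and 0.61 in SMC lines. In non-SMC lines it was at -8.45, -0.72 and -6.0, and only replicate 2 was well above background. The SMC lines agreed within 0.13 (SD, n = 3), while the non-SMC lines spread with an SD of 3.95, and the groups did not overlap. The difference of 5.53 ± 1.62 (SE, 95% interval 1.07 to 9.99) did not pass (limma adjusted p = 0.146), and was 4.95 with dim signals at the floor. Without pair 2 it was 7.71 (adjusted p = 0.0337), where 2.64% of all features were called higher. Cux1, its widely expressed paralogue, lay between 1.86 and 2.83 in SMC lines and between 2.05 and 2.80 in non-SMC lines, with an interval of -0.81 to 0.74 for the difference. Its 3 probes that passed the filter disagreed in sign, at -0.036 for the brightest and -0.12 and 0.11 for the others.

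Onecut1 and Onecut2, factors of liver, pancreas and neurons, overlapped between groups. Onecut2 was at 2.98, 2.67 and 4.02 in SMC lines and 1.08, 3.68 and 1.46 in non-SMC lines, where replicate 2 exceeded its SMC partner by 1.01. Onecut1 had the same order within pairs, at 1.89, -1.17 and 2.36 for pairs 1 to 3. Their adjusted p-values were 0.416 and 0.468 (limma).

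Of 13 POU genes on the array 8 were tested, 7 of them with positive differences, where 58.3% of all features had one. Pou2f2, also called OCT2 and known from B cells and neurons, was at -1.48, -1.93 and -0.61 in SMC lines and -8.40, -3.77 and -4.37 in non-SMC lines, the first of these not well above background. All SMC lines lay above all non-SMC lines, and pair 1 gave the widest gap. The difference was 4.17 ± 1.07 (SE, adjusted p = 0.128), or 3.61 with the dim signal at the floor.

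The POU4 genes specify sensory neurons. Pou4f3, required in hair cells of the inner ear, was at -4.26, -3.28 and -5.57 in SMC lines and -5.57, -5.12 and -6.78 in non-SMC lines, the last not well above background. The groups overlapped slightly, yet the pairs differed by similar amounts, 1.31, 1.84 and 1.2 (adjusted p = 0.108). Pou4f1, which encodes BRN3A, was at -1.11, -2.77 and -1.71 in SMC lines and -2.50, -2.66 and -3.60 in non-SMC lines. Its groups overlapped by the brightest probe, at a difference of 1.06 ± 0.50 (adjusted p = 0.263), and a second probe gave 4.07, the widest disagreement in size among the tested genes with several probes. Pou4f2 was well above background on no array.

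Pou3f1, a factor of Schwann cells and neural progenitors, was the POU gene with a negative difference. It was at -4.51, -4.38 and -0.31 in SMC lines and -4.21, -1.48 and 1.66 in non-SMC lines. Both lines of pair 3 lay above the other lines of their group, and the groups overlapped (difference -1.72 ± 0.60, adjusted p = 0.178). Over the other settings the Pou3f1 difference ran from -4.53 to -0.22, with limma adjusted p up to 0.95. It was -0.22 without non-SMC replicate 3 and the pairing. Pou2f1, the ubiquitous OCT1, lay between 1.68 and 2.02 in SMC lines and between 1.22 and 1.68 in non-SMC lines by its brightest probe. Its difference was 0.50 ± 0.29 (limma adjusted p = 0.331), and other Pou2f1 probes that passed the filter gave 0.75 and 0.96. Pou2f3, the regulator of tuft cells and of tuft-like small cell carcinoma, was not well above background on any array, nor were Pou3f4 and the pluripotency factor Pou5f1.

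The TALE partners were detected in nearly all lines. Pbx4 was at -0.72, -0.62 and 0.31 in SMC lines and -4.08, -1.35 and -2.77 in non-SMC lines. The groups did not overlap, with non-SMC replicate 2 nearest to the SMC lines (difference 2.39 ± 0.65, adjusted p = 0.134 by limma; second probe 1.94). Leaving out that line and the pairing gave 3.09 (adjusted p = 0.0306). Pbx3 was at 2.60, 3.01 and 4.06 in SMC lines and 1.98, 2.62 and 1.82 in non-SMC lines, which overlapped by a margin of 0.02 (difference 1.08 ± 0.49, adjusted p = 0.249). For Pbx2 the interval of the difference was -0.81 to 1.16.

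MEIS proteins bind DNA together with PBX. Meis2 was at 2.89, 4.54 and 5.49 in SMC lines and 2.16, 4.24 and 2.05 in non-SMC lines. Pair 3 differed by 3.44 and the other pairs by less than 1, and the groups overlapped (adjusted p = 0.278). Meis1 differed in the other direction: it was at -8.52, -4.58 and -5.39 in SMC lines, the first not well above background, and at -5.53, -4.34 and -3.13 in non-SMC lines. The groups overlapped (difference -1.83 ± 0.64, limma adjusted p = 0.179), and the value was -1.12 with the dim signal at the floor and -0.98 by a second probe.

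Iroquois genes lie in neighbouring sets, Irx1, Irx2 and Irx4 on chromosome 13 and Irx3, Irx5 and Irx6 on chromosome 8. Irx1, which is expressed in developing lung epithelium, was at -3.06, 1.19 and 0.68 in SMC lines and 1.77, 1.37 and 2.40 in non-SMC lines. All SMC lines lay below all non-SMC lines, but pair 2 differed by only -0.18 and pair 1 by -4.83 (difference -2.24 ± 1.00, adjusted p = 0.242). Its neighbours gave 0.13 for Irx2 and 0.25 for Irx4. On chromosome 8, Irx5 lay between -0.23 and -0.0024 in SMC lines and between -1.35 and -0.36 in non-SMC lines, without overlap (difference 0.72 ± 0.33, adjusted p = 0.253). Irx6 was at -5.07, -2.62 and -5.49 in SMC lines and -6.08, -7.18 and -7.04 in non-SMC lines, of which only the first was well above background. The groups did not overlap, and pair 2 gave the largest gap, 4.57 (mean 2.37 ± 0.83, adjusted p = 0.178). Irx3 was well above background on no array.

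On the negative side, Msx2 and Dlx2 were well above background on every non-SMC array and on no SMC array, the only members with that pattern (5.26% of the 38 members detected on some arrays, against 6.1% of all such probes). Msx2, a BMP-responsive factor of neural crest and skull mesenchyme, was at -8.40, -8.24 and -8.13 in SMC lines and -5.32, 0.08 and -0.43 in non-SMC lines. By the values given here, over all lines, its mean was therefore at least 21.2-fold lower in SMC (limma adjusted p = 0.0917, above the threshold). This bound sets the non-SMC mean of -1.89 against the lowest signal counted as well above background on each SMC array. Msx2 passed with median scaling (-6.45, adjusted p = 0.027), on the shared slide alone (-8.14, 0.00855) and without pair 1 (-8.00, 0.0469); without non-SMC replicate 1 and the pairing the adjusted p was 0.0008. With normexp the Msx2 difference was -2.31 (adjusted p = 0.119), nearer 0 than the bound. In the 4 settings with a call, 4.9%, 3.08%, 1.05% and 3.79% of all features were called lower. Its paralogue Msx1 was at -3.66, -2.92 and -0.96 in SMC lines and -0.86, -3.45 and -3.33 in non-SMC lines (difference 0.032 ± 1.10, interval -2.99 to 3.05).

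Dlx2, a factor of forebrain interneurons and branchial arches, was at -6.31, -8.19 and -8.17 in SMC lines, none of them well above background, and at 1.5, -5.82 and -5.44 in non-SMC lines. Replicate 1 exceeded the other non-SMC lines by more than 6. By these values, over all lines, the bound was at least 8.11-fold lower in SMC (limma adjusted p = 0.146), and the floored difference was -3.02. The bound rests on non-SMC replicate 1. The Dlx2 difference of -4.31 was -1.93 without that line and the pairing, -1.63 on the shared slide alone and -1.71 with normexp, none past the threshold. The values in those settings were smaller in size than the floored difference, so the bound does not hold there. Dlx1, the chromosomal neighbour of Dlx2, was at -3.44, -4.05 and -2.92 in SMC lines and -0.57, -3.80 and -3.38 in non-SMC lines, where replicate 1 again stood highest (difference -0.89 ± 0.76, adjusted p = 0.497). Dlx5 and Dlx6, neighbours on chromosome 6, were also highest in non-SMC replicate 1, at -1.47 and -4.61. So was En1, a midbrain and dermal factor detected in that line alone, at -3.53. Non-SMC replicate 1 was also the line with the highest mesenchymal and lowest epithelial marker sums of its group (9.18 and 0.40), and the part of these in the DLX values was not tested.

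Nkx2-3, a factor of gut and spleen mesenchyme, was at -5.76, -5.43 and -4.58 in SMC lines and -5.16, -2.60 and -1.94 in non-SMC lines. Non-SMC replicate 1 lay within the SMC range (difference -2.03 ± 0.57, adjusted p = 0.14), and on the shared slide alone Nkx2-3 passed at -3.33 (limma adjusted p = 0.0389), as it did without non-SMC replicate 1 and the pairing (-2.99, 0.041). Gsx1, a ventral forebrain factor, gave -3.09, -2.90 and -3.62 in SMC lines and -3.39, -4.34 and -4.27 in non-SMC lines, with overlap (adjusted p = 0.25).

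Barx2, which is expressed in epithelia and muscle, was at 0.69, 1.27 and -3.75 in SMC lines and -5.59, -2.96 and -3.65 in non-SMC lines. SMC replicates 1 and 2 stood above all other lines, and SMC replicate 3 lay among the non-SMC lines (difference 3.47 ± 1.35, adjusted p = 0.203). SMC replicate 3 was also the SMC line with the lowest epithelial marker sum, 1.92. On the shared slide alone, which leaves out SMC replicate 3 and non-SMC replicate 1, Barx2 passed at 4.29 (limma adjusted p = 0.0306), where 0.101% of all features were called higher. En2, the engrailed gene of midbrain and cerebellum, ranged from 1.2 to 2.22 in SMC lines. In non-SMC lines it was at 1.80, 1.35 and -3.55, so that replicate 3 alone stood apart (difference 1.99 ± 1.01, adjusted p = 0.286).

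Detection of several ZIC genes was alike in the lines of a pair. Zic1 was well above background only in the lines of pair 3, at 2.90 in SMC replicate 3 and -3.49 in non-SMC replicate 3, against -8.15 to -7.28 in the other 4 lines. Its chromosome 9 neighbour Zic4 was detected in SMC replicate 3 alone, at -5.68. Zic5 had the opposite pattern: it was well above background in both lines of pairs 1 and 2, at -2.75 and -4.58 in the SMC lines and -3.80 and -5.45 in the non-SMC lines, and in neither line of pair 3. Zic2, the chromosome 14 neighbour of Zic5, was at -0.42, -2.59 and -8.16 in SMC lines, with replicate 3 not well above background, and at -1.81, -2.79 and -4.14 in non-SMC lines. In both groups the line of pair 3 was the lowest for Zic2, which was the tested ZIC gene (difference -0.81 ± 1.18, limma adjusted p = 0.691).

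A detection pattern that was the same in both lines of every pair was found for 4 of the 38 members detected on some arrays (10.5%, against 3.66% of the 10250 probes detected on some arrays). Besides Zic1 and Zic5 they were Tlx3, which specifies excitatory spinal neurons, and Phox2a, a factor of noradrenergic neurons; all 4 were named after their values were seen. Tlx3 was at -4.13 and -4.38 in SMC replicates 1 and 2 and at -4.49 and -5.90 in their non-SMC partners, and was not well above background in pair 3. Phox2a was detected in pairs 2 and 3, at -1.33 and -3.68 in the SMC lines and -2.53 and -5.62 in the non-SMC lines. Pair 3 was also the pair with the higher leukocyte marker sums. These came mostly from Lyz2 in SMC replicate 3 and from Tyrobp and Lyz2 in non-SMC replicate 3. The part of these markers in the pair 3 values was not tested.

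**Figure D4:**
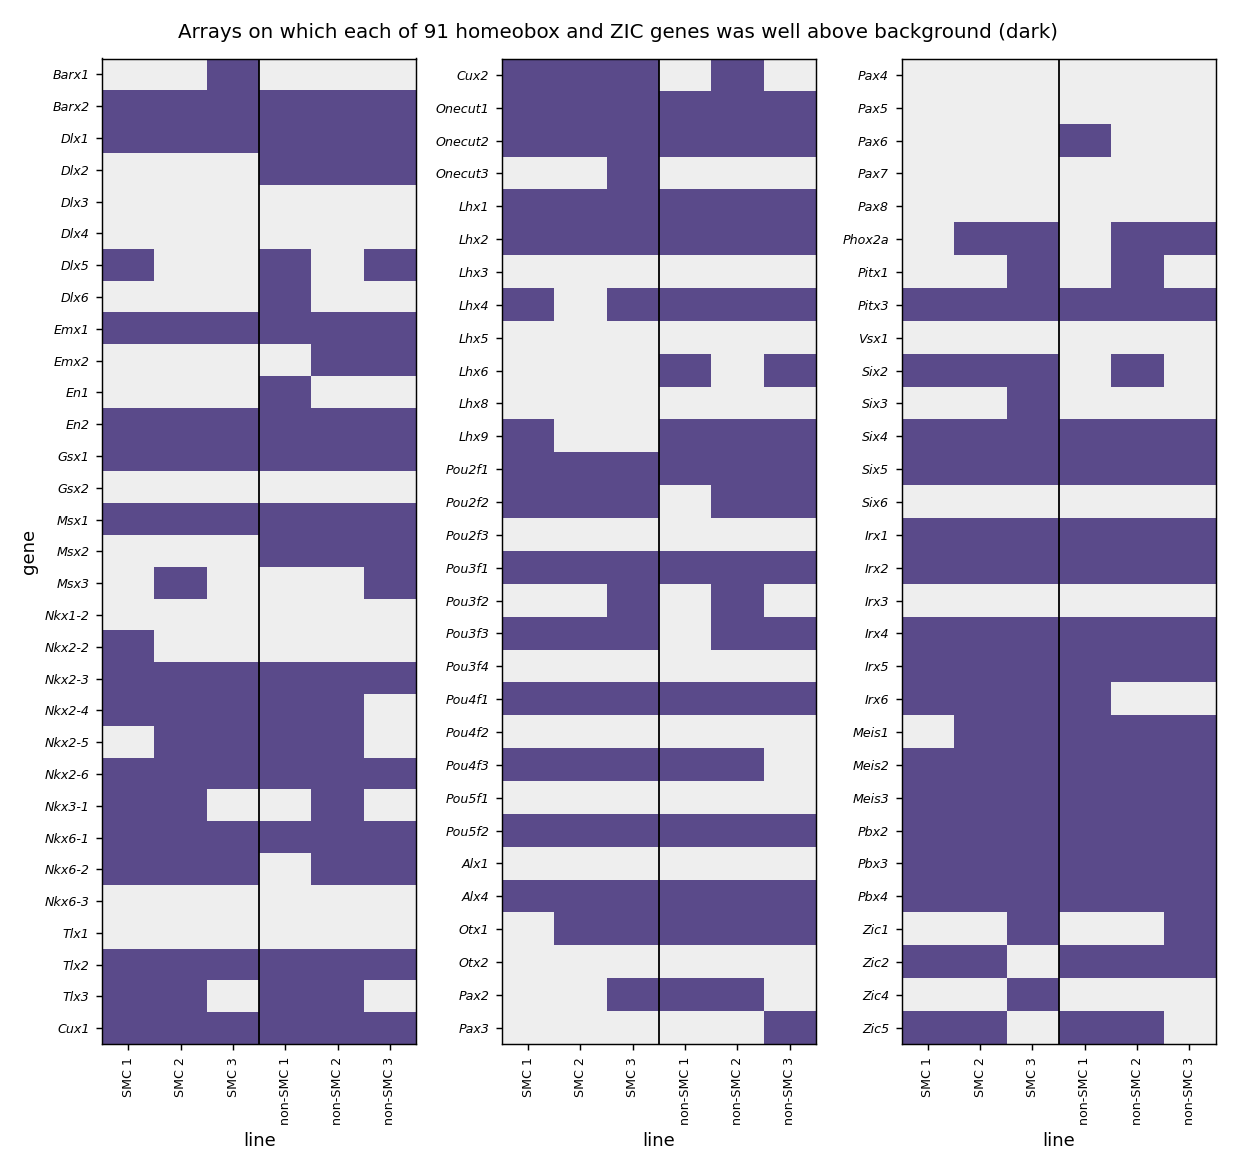
Arrays (x axis, the 3 SMC lines left of the 3 non-SMC lines) on which each of 91 of the 99 homeobox and ZIC genes (y axis, ordered by class and family) was well above background, in dark. Of the 91 genes, 32 are dark in all 6 lines, 22 in none and 37 in some, and Msx2 and Dlx2 are dark only in the 3 non-SMC lines.

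The number of genes detected overlapped between groups. Of the 99 genes, 36 were well above background on all 6 arrays, 25 on none and 38 on some. On the SMC arrays 52, 54 and 58 members were well above background, and on the non-SMC arrays 55, 60 and 53. Tested genes detected on all 6 arrays numbered 36; 8 entered through the SMC lines alone and 7 through the non-SMC lines alone, and such a gene had to differ in detection. Of the 7 PAX genes none was tested: Pax4, Pax5, Pax7 and Pax8 were well above background on no array, Pax3 and Pax6 on 1, and Pax2 on 3. The other genes detected nowhere included Alx1, Dlx3, Dlx4, Gsx2, Nkx1-2, Nkx6-3, Otx2, Tlx1 and Vsx1, besides the LHX, POU, sine oculis and IRX genes named above.

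Among 42 further homeobox genes outside the HOX clusters on the array, 34 were tested, with a median difference of 0.02, against 0.18 over all features. Of the 34, 1 passed as lower in SMC and none as higher, where 3.03% and 0.156% of all features were called. The gene that passed was Prrx1, a factor of limb bud and craniofacial mesenchyme and of fibroblasts, at -5.04, -5.23 and -4.10 in SMC lines and 5.27, 0.88 and 2.37 in non-SMC lines. All SMC lines lay more than 4 below all non-SMC lines, and the fitted difference was -7.63 ± 0.98 (limma adjusted p = 0.0464, ± SE), and it was lower in all 3 pairs. Other Prrx1 probes gave -11.34 and -11.05. Prrx1 differed in the same direction as the sum of the mesenchymal markers listed above, whose part in its difference was not tested. It missed the threshold in 9 of 19 other settings. Of 6 GLI and GLIS genes, relatives of ZIC, 4 were tested, all with negative differences and none past the threshold. Over all features, 58.3% of differences were positive. Glis2 was at 2.85, 3.34 and 3.39 in SMC lines and 4.18, 4.30 and 4.48 in non-SMC lines, without overlap (difference -1.13 ± 0.29, adjusted p = 0.126), and Glis3 gave -1.74 ± 0.61 (adjusted p = 0.179), with SMC replicate 3 not well above background, and -0.33 with normexp.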

How the data were processed

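RNA of 6 mouse lung tumour lines was hybridised to single-colour Agilent arrays. The scanner software was Feature Extraction, version 10.7.3.1 per the file headers and 10.7 per the submitters' processing notes. Per the file headers, the deposited intensity used, the processed signal, was background-subtracted by that software; it is not normalized between arrays. The deposited series table holds log2 values with equal quantiles in all columns (median 5.07); the lowest correlation of a column with log2 intensity of its own array was 0.996, and no header or label records its steps.

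Outlier-flagged spots and control spots were dropped, the spots of each probe averaged, and log2 intensity taken relative to the array's 75th percentile. Of 41174 probes, 27479 were named by matching transcript accessions to RefSeq (GRCm38.p6), since the files hold no gene symbols; the other 13695 stayed unnamed. Probes were tested when detected well above background in all 3 lines of either group, and the brightest kept probe stood for a gene. The fit was limma 3.58.1 in R 4.3.3 with terms for pair and group (two-sided; Benjamini-Hochberg over 19847 features; 2 residual and 2.07 prior degrees of freedom). The p-values measure the spread between 3 pairs of lines, whose number limits the precision. The pairs come from the labels; the 2 lines' deviations from their group means had correlations of -0.01, 0.14 and -0.0023 in pairs 1 to 3. "At least" folds set the brighter group's mean against, per array, the higher of the dim probe's value and the lowest well-above-background signal. The same floor gave the floored differences. The folds hold for the values given here, over all lines, and are not minimums for other settings. Members and gene lists were chosen with earlier results of these data known. The members given in every line come from the 25 with the smallest unadjusted p, since none passed; of related lists, those past the threshold, or the 2 with the smallest p. Some members are not reported here by name, and counts cover all of them. The script was tested on simulated data.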

Additional observations from a re-analysis of the deposited data

How the results depend on the processing

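Alternatives were quantile normalization, median scaling, normexp on the median signals (no mean signals were in the files), the deposited log2 table, no filter, a filter for detection on all arrays, averaging over the probes of a gene, no pairing, the shared slide as a term beside the pair, the shared slide alone, and each pair or line left out. The slide as a random block beside the pair could not be fitted. Signs were compared for 30 genes, the 25 members with the smallest p and Prrx1, Eya4, Eya3, Glis2 and Glis3. None of these differences changed sign in any setting it entered, and the signs of other genes were not compared. The genes were chosen by small p in the same arrays, so kept signs are partly fixed by that choice. For these 30 genes, 531 values kept their side of the threshold and 19 passed it where the paired fit did not. Another 9, all of Prrx1, no longer passed (-8.39 to -5.76). Sizes did move: the differences of the 25 members were 1.001 to 5.14 times as large as with normexp. Without the replicate block, 0 members were higher and 0 lower, as in the paired fit. Related genes then passed as 1 higher and 3 lower, against 0 and 1 in the paired fit. Of all features, 1.38% were called higher and 4.91% lower without the block, against 0.156% and 3.03% in the paired fit. On the shared slide alone, 1 member was higher and 2 lower, and 2 related genes were lower. There, 0.101% of all features were called higher and 3.08% lower. With median scaling, 1 member was lower, and 1 related gene was higher and 4 lower. Median scaling called 1.2% of all features higher and 4.9% lower. It moved the median of all features to 0.10, and normexp moved it to 0.08. Related genes lower numbered 0 without a filter, with detection on all arrays and with the shared-slide term. In these settings 1.18%, 0.825% and 2.35% of all features were called lower. Leaving out 1 pair or line gave 0 to 5 members higher and 0 to 2 lower, and 0 to 5 related genes higher and 0 to 2 lower. Both counts of 5 came without non-SMC replicate 2, where 7.86% of all features were called higher. The 2 members lower came without non-SMC replicate 1, where 3.79% of all features were called lower. The 2 related genes lower came without SMC replicate 3, where 3.64% were called lower. No member passed without pair 3, where 0% of all features were called in either direction. A line left out can be the one that ran against a difference, so a pass without it is not independent support. The array gives only a bound for signals not well above background, and the cause of each change was not tested.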

Other observations

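Some transcripts next to or related to the members were measured as well and were chosen after their values were seen. Lhx1os, a noncoding transcript beside Lhx1, was at 1.33, -4.41 and 2.05 in SMC lines and -1.96, -3.05 and -2.08 in non-SMC lines, with SMC replicate 2 the lowest of the 6 lines, as for Lhx1. Dlx6os1, a noncoding transcript of the Dlx5 and Dlx6 region, was well above background in non-SMC replicate 1 alone, at -4.46, the line in which Dlx6 was detected. Pax9, a paired box gene of tooth and pharyngeal pouch development, was at 1.62, -6.41 and -2.15 in SMC lines and 0.60, -1.0 and -0.70 in non-SMC lines, and SMC replicate 2 was not well above background (difference -1.95 ± 1.34, limma adjusted p = 0.403). Pax1 was detected in SMC replicate 3 and non-SMC replicate 2, the lines in which Pitx1 was also detected.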
